A study of Mus musculus with 4 samples.

Results

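The galectin family was examined here through 5 genes, Lgals1, Lgals3, Lgals3bp, Lgals8 and Lgals9, in CD45-sorted leukocytes from uninjured and injured mouse spinal cord. The members were found by their symbols in the gene annotation of each matrix, where each symbol matched 1 of 31053 genes. The series holds 4 droplet-based single-cell RNA libraries, 1 per condition, from C57BL/6 mice of both sexes. The conditions were an uninjured (sham) cord dissociated by the standard protocol (standard sham), an uninjured cord dissociated with actinomycin D, a transcription inhibitor (ActD sham), an injured cord 3 days after injury (3 dpi) and an injured cord 14 days after injury (14 dpi). Both injury libraries were made with actinomycin D. Which sham library received it was read from the word "Act-seq" in a library title together with the design text. By the study's methods, the mice were 3 months old at the operation, the injury was a thoracic contusion, sham mice had the operation without the contusion, animals were perfused before dissection, and live CD45+ cells were sorted. The methods give a total number of mice for the sequencing, divided over control, 3 dpi and 14 dpi groups, and the labels do not say how many of them stand behind each library. Each condition is 1 library, so differences between conditions carry no replicate error. Intervals given below are 95% intervals for counting error only.

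Galectins are lectins that bind beta-galactoside sugars on glycoproteins and glycolipids. They are made without a signal peptide, act inside the cell and leave it by an unconventional route, and outside the cell they cross-link surface receptors. Galectin-1 (Lgals1) is known for dampening T cell responses, and galectin-3 (Lgals3) is a product of activated macrophages and microglia that also gathers on ruptured lysosomes. Galectin-8 (Lgals8) marks damaged vacuoles for autophagy, galectin-9 (Lgals9) is a ligand of the inhibitory receptor Tim-3, and Lgals3bp encodes a secreted glycoprotein that binds galectin-3 and is not itself a lectin.

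All 5 members are protein-coding. In the GENCODE M21 annotation of GRCm38 (mm10), Lgals1 (ENSMUSG00000068220) lies at chr15:78926725-78930465 on the plus strand and Lgals3 (ENSMUSG00000050335) at chr14:47367751-47386160 on the plus strand. Lgals3bp (ENSMUSG00000033880) lies at chr11:118392751-118402092, Lgals8 (ENSMUSG00000057554) at chr13:12439415-12464944 and Lgals9 (ENSMUSG00000001123) at chr11:78962974-78984946, all on the minus strand. Lgals8 overlaps Heatr1 on the opposite strand.

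Lgals3bp and Lgals9 are known as genes that interferon can induce, and their levels are set beside interferon response genes further on, so the matching letters of their promoters are shown first. RefSeq promoter windows (GRCm38.p6, 250 bases before to 50 bases after the start) were on hand for 4 of the 5 members, and Lgals1 is named only. The core of an interferon-stimulated response element, GAAA followed by any 2 bases and GAAA again, was searched on both strands, as was the shorter AANNGAAA, which overlaps it. The long form was in 1131 of 32851 promoter windows (3.44%) and the short form in 7857 (23.9%). Of 20 interferon response genes, 13 had a window and 8 of these held the long form. In the stretches below, written 5′ to 3′ along the gene, capitals mark the matched letters. The first 2 Lgals9 stretches hold the long form on the opposite strand, with its first base at position -55 (chr11:78984960-78984989) and at position 16 (chr11:78984890-78984919) counted from the start. The Lgals3bp stretch holds the short form at position -14 (chr11:118401955-118401984), and the last Lgals9 stretch holds it at position -151 (chr11:78985057-78985086). Positions are counted from the RefSeq start, which differs from the GENCODE gene bounds given above. By those bounds the Lgals3bp stretch lies inside the gene (chr11:118392751-118402092).
Lgals9, long form upstream: tgacatcagcTTTCTTTTTCtctagacact
Lgals9, long form downstream: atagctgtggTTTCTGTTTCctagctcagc
Lgals3bp, short form: tgttttctgaaAATCGAAActaggtgaggt
Lgals9, short form: cagagcacaggAAGGGAAAgtcaaggcaga
No match of either form was found in the Lgals3 and Lgals8 windows.

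After filtering, 24462 cells with 264954098 unique molecular identifiers (UMIs, each standing for 1 captured transcript) remained, from 2135 to 9078 cells a library, with a median of 7426 to 9672 UMIs a cell. Clusters were named from fixed marker genes without using any galectin gene, so each class is a "like" class of marker-positive cells, called by its short name here. Levels are counts per 1000000 UMIs of the class in a library (CPM). The microglial markers P2ry12, Tmem119 and 8 others were all detected in microglia of each library, but their summed level was 14060 CPM in standard sham, 25696 in ActD sham, 5743 at 3 dpi and 11500 at 14 dpi. Between 3.27% and 21.9% of the cells of a library stayed unnamed. Pairs of libraries shared few cell barcodes, 3 to 36 a pair before filtering.

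Beyond this, 2 features of the libraries bear on the galectins. At 3 dpi, where 3857 of 8214 cells were injury macrophages, macrophage RNA was present in classes that should lack it. Over the 8 injury macrophage markers (Arg1, Fn1, Thbs1, Ms4a7, Gpnmb, Plin2, Hmox1, Cd36), B cells held a median of 14.2% of the macrophage level, from 11.6% for Ms4a7 to 28.0% for Cd36. The file headers also name software version 3.0.1 for standard sham and 3 dpi, and 3.1.0 for ActD sham and 14 dpi. Microglial interferon response genes followed this split, with summed levels of 701 and 937 CPM under the first version and 1906 and 2479 CPM under the second. Version and condition cannot be told apart.

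Lgals3 differed widely between libraries in microglia, the resident macrophages of the cord. It stood at 53.8 CPM in standard sham, 16 in ActD sham, 1053 at 3 dpi and 415 at 14 dpi. Both injury libraries lay above both sham libraries. Against ActD sham the level was 65.8-fold higher at 3 dpi (58.4 to 74.5) and 25.9-fold higher at 14 dpi (23.0 to 29.3). Against standard sham, which has the same header version as 3 dpi, the 3 dpi level was 19.6-fold higher (18.3 to 21). The sham libraries themselves differed 3.36-fold (2.92 to 3.87), standard over ActD, so part of the range lies between uninjured cords. Standard sham microglia leave out 625 unnamed cells of cluster 9, at 13.6 CPM of Lgals3, a cluster named microglia in the other libraries.

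Lgals1 in microglia had the same order of libraries. It stood at 13.7 CPM in standard sham, 7.44 in ActD sham, 1259 at 3 dpi and 145 at 14 dpi. The 3 dpi level was 169-fold above ActD sham (142 to 203) and the 14 dpi level 19.5-fold above it (16.3 to 23.4). From 3 to 14 dpi the level was 8.68-fold apart for Lgals1 (8.46 to 8.91) and 2.54-fold apart for Lgals3 (2.49 to 2.59), with 3 dpi the higher for both.

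The other members took different courses in microglia. Lgals3bp stood at 97.8 CPM in standard sham, 422 in ActD sham, 112 at 3 dpi and 736 at 14 dpi. It was low in both libraries of header version 3.0.1 and high in both of version 3.1.0. Within a version, the 3 dpi level was 1.15-fold that of standard sham (1.07 to 1.22) and the 14 dpi level 1.74-fold that of ActD sham (1.70 to 1.79). Lgals8 stood at 58.9, 94.5, 45.7 and 49.2 CPM in standard sham, ActD sham, 3 dpi and 14 dpi. Lgals9 stood at 125, 238, 179 and 163 CPM in the same order, with ActD sham the highest of the 4 libraries for both genes.

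Counted by the 2-fold limit against ActD sham, 2 members were higher in microglia at 3 dpi (Lgals1, Lgals3), where 15.3% of 12322 genes were higher, and 2 were lower (Lgals3bp, 0.266, and Lgals8, 0.483), where 32.4% were lower. At 14 dpi 2 members were higher, Lgals1 and Lgals3, where 7.2% of 12525 genes were higher, and none of the 5 was past 2-fold lower, where 18.6% were. The median gene was at a log2 ratio of -0.50 at 3 dpi and -0.52 at 14 dpi, so values near these are close to the middle of all genes. With TMM scaling, which removes this shift, Lgals8 at 3 dpi was at -0.56 and no longer past 2-fold, Lgals3bp at 14 dpi was at 1.31 and past it, and Lgals9 at 3 dpi turned from -0.41 to 0.08. Between the sham libraries, Lgals3 was past 2-fold higher in standard sham, where 6.63% of 11802 genes were, and Lgals3bp lower at 0.232 (0.219 to 0.245), where 19.8% were. The 20 immediate early genes, which respond to handling within minutes, summed to 51480 CPM in standard sham microglia and 1168 CPM in ActD sham. The part of dissociation in the sham difference of the galectins was not tested.

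**Figure D1:**
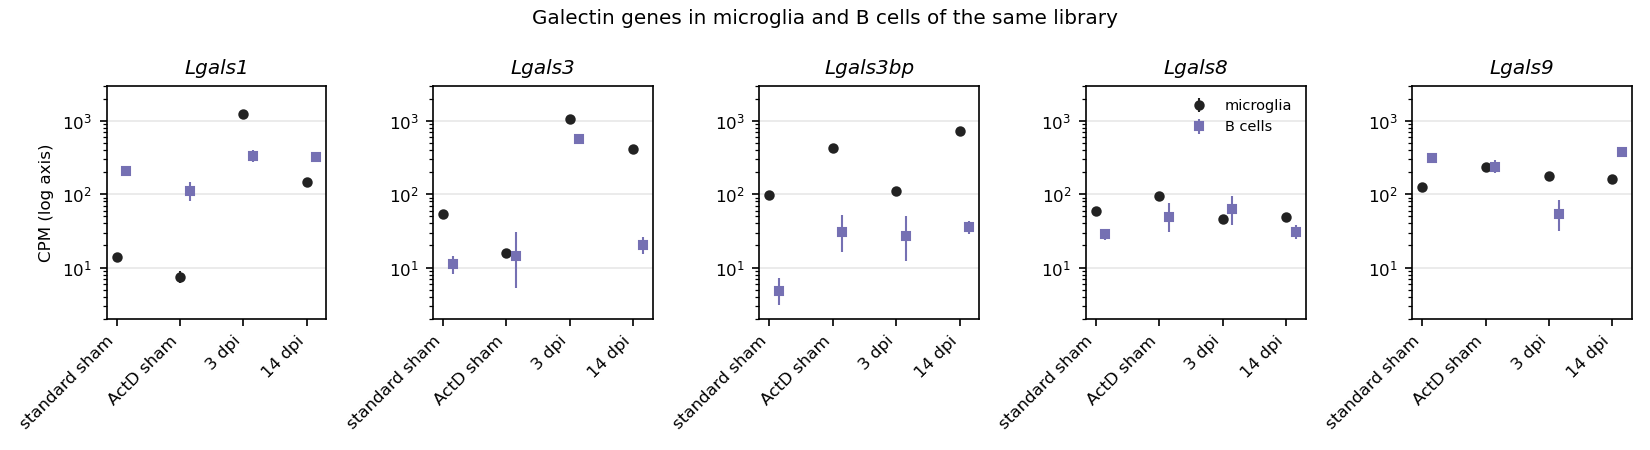
Level of each member (CPM, log axis) in microglia (circles) and B cells (squares) of the 4 libraries, with 95% counting intervals. Microglial Lgals1 and Lgals3 lie highest at 3 dpi (1259 and 1053 CPM), and B cells of that library also hold 335 and 564 CPM.

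The 3 dpi microglial levels were set beside the B cells of the same library, which in the other libraries had little Lgals3. B cell Lgals3 stood at 11.1 CPM in standard sham, 14.2 in ActD sham, 564 at 3 dpi and 20.3 at 14 dpi. The 3 dpi library stood apart from the other 3. Its microglia were 1.87-fold above its B cells for Lgals3 (1.62 to 2.17) and 3.75-fold above them for Lgals1 (3.12 to 4.56). Read as a share of the macrophage level, B cells held 12.4% for Lgals3 and 12.6% for Lgals1, near the low end of their 11.6% to 28.0% over the 8 injury macrophage markers. Microglia held 23.1% for Lgals3 and 47.4% for Lgals1. Over the same markers they held a median of 27.0%, from 10.9% for Thbs1, 13.4% for Arg1 and 13.7% for Gpnmb, over Ms4a7 just below Lgals3, to 32.9% for Cd36, 37.5% for Plin2, 51.7% for Hmox1 and 107% for Fn1. The microglial Lgals3 share thus lay within the range of the markers and below their median, and the Lgals1 share above the median. At 14 dpi B cells held 1.24% of the macrophage level of Lgals3 and microglia 25.4%.

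Shares of cells were compared after each cell was thinned to 1000 UMIs, which left out 1 to 7 shallower microglia a library. The share of microglia with an Lgals3 UMI was 1.96% in standard sham (1.40 to 2.67), 1.01% in ActD sham (0.576 to 1.63), 52.0% at 3 dpi (48.8 to 55.2) and 20.6% at 14 dpi (19.4 to 21.9). In B cells it was 0.974%, 1.56%, 52.0% and 2.28% in the same order. At 3 dpi the thinned share in microglia was no higher than that in B cells, although the microglial level in CPM was the higher. The 2 classes differed in depth there, with medians of 18687 and 2504 UMIs a cell. Thinning does not equalise the part of free RNA between such classes, so no conclusion on expression is drawn from this share. Before thinning, the sums were 21353 Lgals3 UMIs in 962 microglia and 190 in 125 B cells. The 14 dpi share lay above that of B cells. Without thinning the microglial shares were 9.10%, 5.22%, 96.0% and 59.1%, at medians of 7458, 9561, 18687 and 10756 UMIs a cell, and B cells had medians of 2504 to 5811 UMIs. In neutrophils the thinned share was 57.1%, 59.3%, 60.5% and 58.2% in the same order. At 3 dpi the neutrophil share (58.2 to 62.7) stood beside 52.0% in B cells (42.9 to 61.0), and the intervals overlap, whereas in the other libraries B cells were at or below 2.28%.

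**Figure D2:**
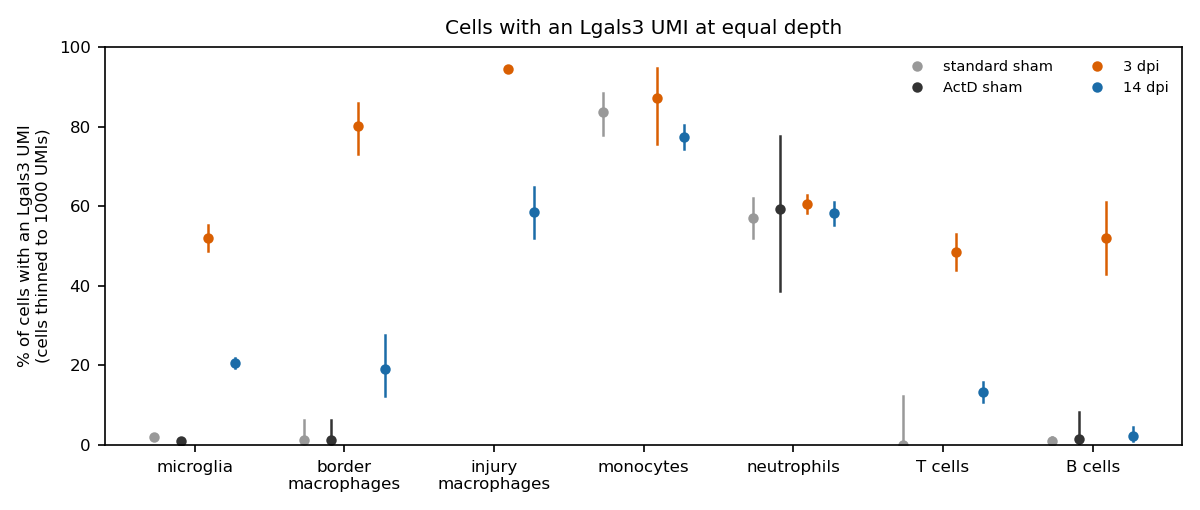
Percent of cells with at least 1 Lgals3 UMI after thinning each cell to 1000 UMIs, by class and library, with exact 95% intervals. Neutrophils lie between 57.1% and 60.5% in all 4 libraries, while microglia and B cells both reach 52.0% at 3 dpi and separate at 14 dpi, at 20.6% and 2.28%.

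Within uninjured microglia, Lgals3 was held by a small group of cells. Cluster 1, which was led by Apoc1 and Spp1 at 14 dpi, made up 5.47% of ActD sham microglia and held 75.3% of their Lgals3 UMIs. In standard sham it made up 5.73% of microglia and held 85.5%. Its Lgals3 level was 158 CPM in ActD sham and 486 in standard sham, against 3.35 and 8.61 CPM in cluster 0, which held most sham microglia. At 14 dpi cluster 1 was the main cluster, with 56.3% of microglia and 90.6% of their Lgals3 UMIs, and stood at 546 CPM against 57.5 CPM in cluster 0. Clusters were made from other genes of the same cells, so these values are a description with no test. Cluster 1 held 26.8% of the microglia at 3 dpi, and cluster 0 stood there at 441 CPM, below the B cells.

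Lgals1 was also lower in cluster 0 than in cluster 1, at 3.77 and 38.8 CPM in ActD sham and at 29.0 and 182 CPM at 14 dpi. It was less confined to cluster 1 than Lgals3. In ActD sham cluster 1 held 39.7% of the microglial Lgals1 UMIs, cluster 0 held 42.9% and the 23 cells of cluster 16 held 10.3%. At 14 dpi the 28 cells of cluster 10.8 held 2.61% of the Lgals1 UMIs and 0.237% of the Lgals3 UMIs. Cycling microglia at 3 dpi were in 6 clusters. In clusters 10.4, 10.5, 10.6, 10.8 and 10.9 Lgals3 was between 948 and 1317 CPM and Lgals1 between 1184 and 1588 CPM. Cluster 10.3, with 21 cells led by histone genes and the highest summed proliferation genes (9308 CPM), was lower, at 459 CPM of Lgals3 and 586 of Lgals1. Most microglia came from different clusters in different libraries, so a level of the class also depends on which cluster holds the class.

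**Figure D3:**
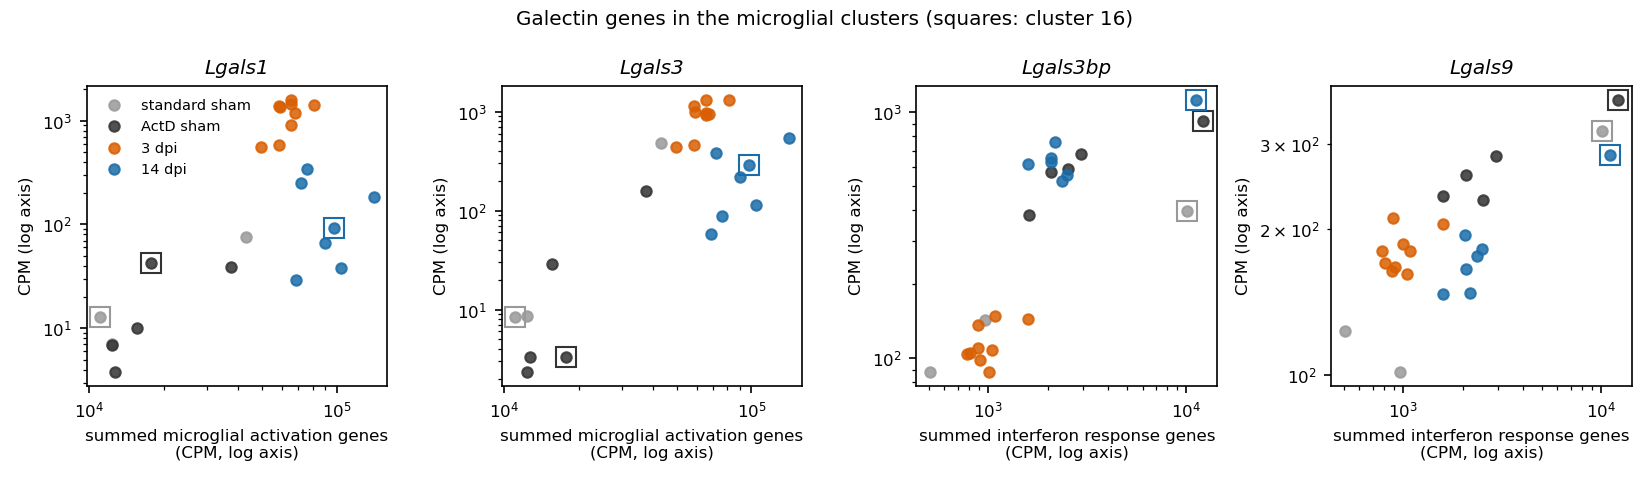
Levels of 4 members (CPM, log axis) in each microglial cluster of each library against the summed level of microglial activation genes (Lgals1, Lgals3) or interferon response genes (Lgals3bp, Lgals9), both log axes. Clusters of the sham libraries with the lowest activation sums hold the least Lgals3, and cluster 16 (squares), high in interferon response genes, holds 399 to 1127 CPM of Lgals3bp.

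Cluster 16, with 29 cells in standard sham, 23 in ActD sham and 190 at 14 dpi, was the interferon-high cluster, at 10081, 12181 and 11114 CPM of summed interferon response genes. Its Lgals3bp level was 399, 919 and 1127 CPM, against 87.7, 382 and 630 CPM in cluster 0 of the same libraries. Its Lgals9 level was 318, 370 and 285 CPM, against 124, 234 and 195 CPM. Both members were thus higher in the interferon-high cluster in each of the 3 libraries that had one. Lgals3 in this cluster was 8.49, 3.31 and 287 CPM. The standard sham value rests on 2 UMIs and the ActD sham value on 1, too few to compare with cluster 0. Among injury macrophages at 3 dpi, 42 cells of the same cluster had 241 CPM of Lgals3bp and 281 of Lgals9, against 99.9 and 138 CPM in cluster 2. Among monocytes at 14 dpi, the cluster with the higher interferon sum (15639 against 4078 CPM) had 339 CPM of Lgals3bp and 233 of Lgals9, against 113 and 110 CPM. Other groups did not all follow this order. Of the B cell clusters at 14 dpi, cluster 12 had the highest interferon sum (2750 CPM), the highest Lgals3bp (72.5) and the lowest Lgals9 (93.3). Neutrophils of ActD sham had an interferon sum of 13785 CPM against 1906 in microglia. Their Lgals3bp was 35.3 against 422 CPM, and their Lgals9 275 against 238 CPM.

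Injury macrophages, named from 8 markers, had the highest Lgals1 and Lgals3 levels of the named classes at 3 dpi. The markers summed to 15826 CPM at 3 dpi and 3977 at 14 dpi, against 5427 and 883 CPM in microglia, but not each of them set the class apart. Arg1 was at 4481 CPM at 3 dpi and 4.05 at 14 dpi. Fn1, at 1270 and 189 CPM, was below its microglial level at both times (1377 and 331 CPM). They had 4651 CPM of Lgals3 at 3 dpi and 2021 at 14 dpi. Their Lgals1 level was 2674 CPM at 3 dpi and 554 at 14 dpi, a 4.83-fold difference (4.61 to 5.05), while Lgals3 differed 2.30-fold (2.25 to 2.36). Lgals3bp went the other way, at 93.4 and 487 CPM, with the header versions split in the same direction. Lgals8 stood at 60.1 and 53.3 CPM and Lgals9 at 137 and 115 CPM. The 236 injury macrophages at 14 dpi also carried 5400 CPM of summed microglial markers, against 961 CPM in the same cluster at 3 dpi, so they are less clearly set apart from microglia. At 3 dpi the class held 2357 cells of cluster 2 and 1214 of cluster 4, whereas all injury macrophages at 14 dpi were of cluster 2.

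Border macrophages, the Mrc1- and Pf4-positive macrophages of the meninges and vessels, are known as resident cells and were present in both sham libraries. Their Lgals1 level was 372 CPM in standard sham, 596 in ActD sham, 2170 at 3 dpi and 553 at 14 dpi. Their Lgals3 level was 32.3, 8.68, 2208 and 252 CPM in the same order. Lgals1 was therefore present in uninjured border macrophages, at levels above those of uninjured microglia, while Lgals3 was low in both classes there. Against ActD sham, where Lgals3 rested on 8 UMIs, Lgals3 was 254-fold higher at 3 dpi (129 to 590) and 29.0-fold higher at 14 dpi (14.5 to 68.0). The class changed in its markers as well. Its summed injury macrophage markers were 1406 CPM in standard sham, 1067 in ActD sham, 13272 at 3 dpi and 1364 at 14 dpi, and its microglial markers reached 6515 CPM at 14 dpi, above its own markers (6287). The 3 dpi library also held the macrophage RNA described above. The part of other cells and of free RNA in the border macrophage levels after injury was not tested. With Lgals1 at 3.64-fold (3.34 to 3.99), 2 members were past 2-fold higher at 3 dpi, where 11.1% of 8733 genes were. At 14 dpi only Lgals3 of the 5 members was past 2-fold higher, where 4.49% of 7690 genes were, and Lgals1 was at 0.928 (0.822 to 1.05). Lgals3bp stood at 73.1, 349, 114 and 547 CPM, with the same split by header version as in microglia.

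Within each library, macrophages were then set against microglia. In the sham libraries the macrophages were border macrophages alone, so the ratio there compares resident classes, and at 3 dpi nearly all were injury macrophages. For Lgals1 the ratio was 27.1 in standard sham (22.3 to 33.0), 80.1 in ActD sham (65.9 to 98.0), 2.11 at 3 dpi (2.08 to 2.14) and 3.82 at 14 dpi (3.65 to 4). Macrophages were higher in all 4 libraries. For Lgals3 the ratio was 0.601 in standard sham (0.360 to 0.945), 0.542 in ActD sham (0.232 to 1.08), 4.33 at 3 dpi (4.27 to 4.39) and 3.94 at 14 dpi (3.84 to 4.05). The direction thus differed between sham and injury libraries, although the ActD sham interval includes 1. The sham ratios rest on 19 macrophage UMIs in standard sham and 8 in ActD sham. Standard sham microglia also leave out the 625 unnamed cells of cluster 9, at 13.6 CPM of Lgals3. ActD sham macrophages leave out 46 unnamed cells of cluster 7, at 226 CPM of Lgals3, which scored highest for border macrophage markers. At 3 dpi, 2 members were past 2-fold higher in macrophages, where 6.77% of 12906 genes were higher, and none was past 2-fold lower, where 15.3% were. The injury macrophage markers in 3 dpi microglia are given above, and the part of macrophage RNA in this ratio was not tested.

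The ratios of the other members were closer to 1. Lgals3bp was at 0.747, 0.828, 0.840 and 0.680 in standard sham, ActD sham, 3 dpi and 14 dpi. Lgals8 was at 1.01, 1.14, 1.33 and 1.14, and Lgals9 at 0.409, 0.579, 0.765 and 0.765. Microglia had the higher Lgals9 level in all 4 libraries. Over the 4 libraries, edgeR's quasi-likelihood test with library as a covariate called 0 of the 5 members at an adjusted p of 0.05, where it called 3.39% of 11750 genes. Unadjusted p was under 0.05 for 2 members, Lgals1 and Lgals9, and for 2456 genes. Lgals1 came nearest, with a log2 ratio of 3.53 ± 0.999 (SE, 4 libraries, adjusted p = 0.109), and DESeq2 called it. Lgals3, whose direction differed between libraries, was at 0.91 ± 0.64 (adjusted p = 0.496). These p-values measure the spread between 4 libraries that are also 4 conditions, and the macrophages differ in kind between sham and injury.

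**Figure D4:**
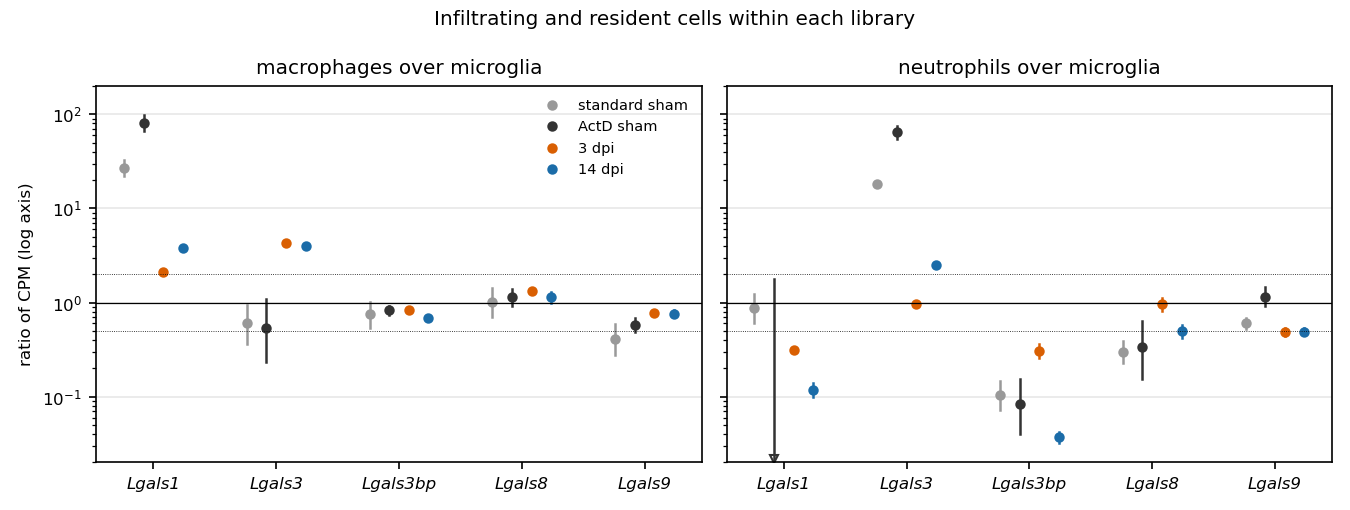
Ratio of each member's level (CPM) in macrophages (left) or neutrophils (right) to that in microglia of the same library, log axis, with 95% counting intervals and dotted lines at 2-fold either way. Lgals3 in named macrophages lies below 1 in both sham libraries (0.601, 0.542) and above it after injury (4.33, 3.94), and the arrow marks Lgals1 in ActD sham neutrophils, with 0 UMIs.

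Monocytes, a class of blood-derived cells, had high Lgals3 with and without injury. Their Lgals3 level was 2718 CPM in standard sham, 2539 at 3 dpi and 2107 at 14 dpi, and ActD sham held too few of them to measure. Their Lgals1 level was 652, 840 and 626 CPM. All 5 members were within 2-fold between 3 and 14 dpi, where 24.8% of 9396 genes were past it. Monocytes at 3 dpi were 55 cells of cluster 15, led by Ace and Ear2, whereas standard sham and 14 dpi also held cluster 4. At 14 dpi cluster 4, led by Vcan and F13a1, made up 465 of 769 monocytes. The 1214 cells of cluster 4 at 3 dpi were named injury macrophages, so monocytes of 3 and 14 dpi differ in makeup.

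In neutrophils Lgals3 was 982 CPM in standard sham, 1027 in ActD sham, 1026 at 3 dpi and 1038 at 14 dpi. The 4 levels lay close together, but the 3 dpi level was 22.5% of the macrophage level, close to the median of the 8 injury macrophage markers in these cells (22.6%), and B cells of that library held 564 CPM. Neutrophil Lgals3 was 1.82-fold the B cell level there (1.57 to 2.11). How much of the 3 dpi level is the neutrophils' own was not tested. The ratio of 3 to 14 dpi was 0.988 (0.953 to 1.03), but with TMM scaling the log2 ratio moved from -0.02 to -1.13, because the median gene was at 1.16 in this comparison. Lgals1 was at 12.1 CPM in standard sham, 0 in ActD sham (0 UMIs in 27 cells, where a limit of 3 counts allows up to 10.6 CPM), 394 at 3 dpi and 17.2 at 14 dpi. It was thus high in 1 of the 4 libraries, 23.0-fold above 14 dpi (19.2 to 27.6), and the only member past 2-fold, where 55.6% of 9935 genes were higher and 5.75% lower. At 3 dpi neutrophil Lgals1 was 14.9% of the macrophage level, below the 15.2% (Arg1) to 60.8% (Plin2) of the 8 markers, and it was 1.18-fold the B cell level (0.972 to 1.44). The log2 ratios of 3 to 14 dpi of Lgals3bp (0.34), Lgals8 (0.84) and Lgals9 (0.13) turned to -0.78, -0.27 and -0.99 with TMM scaling. Nearly all neutrophils at 3 dpi came from cluster 3, and 661 of 1209 at 14 dpi from cluster 6.

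Over the 4 libraries, edgeR called 2 members between neutrophils and microglia, Lgals3 as higher, where 15.2% of 11199 genes were, and Lgals3bp as lower, where 20.8% were. Lgals3 was at a log2 ratio of 3.63 ± 1.16 (SE, adjusted p = 0.0329), with single-library ratios of 18.3, 64.2, 0.975 and 2.50 in standard sham, ActD sham, 3 dpi and 14 dpi. At 3 dpi the 2 classes did not differ past counting error. The Lgals3 call was lost without the ActD sham library, which held only 27 neutrophils (adjusted p = 0.149), and under 3 other settings. Lgals3bp was at -2.63 ± 0.46 (adjusted p = 0.00230), with ratios of 0.104, 0.0837, 0.308 and 0.0371, below 1 in each library. Lgals1 (-1.20, adjusted p = 0.142), Lgals8 (-0.39) and Lgals9 (0.035) were not called.

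Summed over their clusters, B cells were the class with the most Lgals9 in 2 libraries. Their Lgals9 level was 310 CPM in standard sham, 239 in ActD sham, 53.4 at 3 dpi and 376 at 14 dpi. The low 3 dpi value came with a different makeup, since all 125 B cells of that library were of cluster 12. In cluster 12 alone Lgals9 was 50.6, 164, 53.4 and 93.3 CPM in standard sham, ActD sham, 3 dpi and 14 dpi. Microglia of the same libraries were higher, at 125, 238, 179 and 163 CPM, so the lead of the class came from its other clusters. The cycling B cell clusters of standard sham and 14 dpi held 328 to 544 CPM. Cluster 24, with Vpreb1 and Igll1 among its leading genes, held 523 CPM in standard sham and 508 at 14 dpi. Its summed proliferation genes were at 1615 and 1095 CPM. Cluster 13 held 302 CPM in standard sham and 361 in ActD sham, so high Lgals9 was not limited to cycling clusters. Lgals1 in B cells was 211, 111, 335 and 323 CPM in standard sham, ActD sham, 3 dpi and 14 dpi, and Lgals8 was 28.6, 49.7, 62.3 and 30.5 CPM. In cluster 12 alone Lgals1 was 89.4, 57.3, 335 and 124 CPM in the same order, with 3 dpi the highest. Lgals3bp was low in every B cell sum, at 4.80, 30.8, 26.7 and 35.8 CPM. Against microglia, edgeR called only Lgals3bp of the 5 members, as lower at -3.97 ± 0.51 (adjusted p = 0.00249), where 19% of 11295 genes were called lower and 8.77% higher. Lgals3 was at -2.23 ± 0.78 (adjusted p = 0.0748). Without the 3 dpi library 4 members were called, but so were 5022 genes, against 3135 of 11295 with all libraries.

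Lgals1 varied widely among the remaining classes. Plasmacytoid dendritic cells, the interferon-producing dendritic cells, had 1989 CPM in standard sham, 1578 at 3 dpi and 1917 at 14 dpi. NK cells had 1125 CPM at 3 dpi and 1091 at 14 dpi. T cells had 136 CPM in standard sham (28 cells), 947 at 3 dpi and 1036 at 14 dpi. Myeloid progenitors had 933, 1349, 1921 and 993 CPM in the 4 libraries, and 44 fibroblast-like cells at 3 dpi had 2319 CPM. Dendritic cells had 1352 CPM in standard sham, 235 at 3 dpi, where they were last of 12 classes, and 719 at 14 dpi. Their makeup differed, since the class was cluster 7 in standard sham, cluster 23 at 3 dpi and mostly cluster 7 at 14 dpi. Dendritic markers of the class summed to 510, 4576 and 1437 CPM in standard sham, 3 dpi and 14 dpi. Its monocyte markers summed to 2895, 331 and 3266 CPM, so the name is uncertain where cluster 7 made up the class. That cluster scored highest as monocytes at 3 dpi and as border macrophages in ActD sham. In cluster 23 alone Lgals1 was 235 CPM at 3 dpi and 57.6 at 14 dpi. Cluster 7 stayed unnamed at 3 dpi, with 763 CPM. Mast cells and basophils had 257 CPM in standard sham. T cells and NK cells of both injury times were above B cells for Lgals1. In standard sham the T cell level (86.9 to 202) was below that of B cells (211 CPM, 198 to 224), but the intervals overlap.

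Where monocytes were measured, these classes had less Lgals3 than monocytes of the same library, except progenitors at 3 dpi. There progenitors (2542 CPM) and monocytes (2539 CPM) had overlapping intervals. In standard sham and at 14 dpi progenitors were lower, at 742 and 681 CPM. T cells had 17.0 CPM in standard sham, 673 at 3 dpi and 145 at 14 dpi, and 3 dpi was 4.63-fold above 14 dpi (4.20 to 5.11). T cells, NK cells, plasmacytoid dendritic cells, dendritic cells, fibroblasts and B cells all lay between 511 and 673 CPM at 3 dpi, which is 11.2% to 14.8% of the macrophage level, while their median share over the 8 injury macrophage markers was 9.35% to 15.1%. These neighbours in the order of Lgals3 levels at 3 dpi did not differ beyond their counting intervals, step by step. Dendritic cells had 670, 544 and 1041 CPM in standard sham, 3 dpi and 14 dpi. In cluster 23 alone they had 544 CPM at 3 dpi and 183 at 14 dpi.

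In order of level at 14 dpi, Lgals3 ran from monocytes (2107 CPM) and injury macrophages (2021) over dendritic cells (1041) and neutrophils (1038), which did not differ, to progenitors (681), microglia (415), plasmacytoid dendritic cells (311) and border macrophages (252), NK cells (170) and T cells (145), and B cells (20.3). Lgals3bp at 14 dpi was led by microglia (736 CPM), then border (547) and injury macrophages (487), whose intervals overlap, and the remaining classes lay at or below 196 CPM. Lgals8 varied least between classes, from 15.3 to 66.6 CPM at 14 dpi and from 27.2 to 110 CPM at 3 dpi, where each class overlapped its neighbour in the order. Lgals9 at 14 dpi was led by B cells (376 CPM), then microglia (163), border macrophages (159) and monocytes (155), which overlap. Among the B cells, cluster 12 was below these, at 93.3 CPM.

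**Figure D5:**
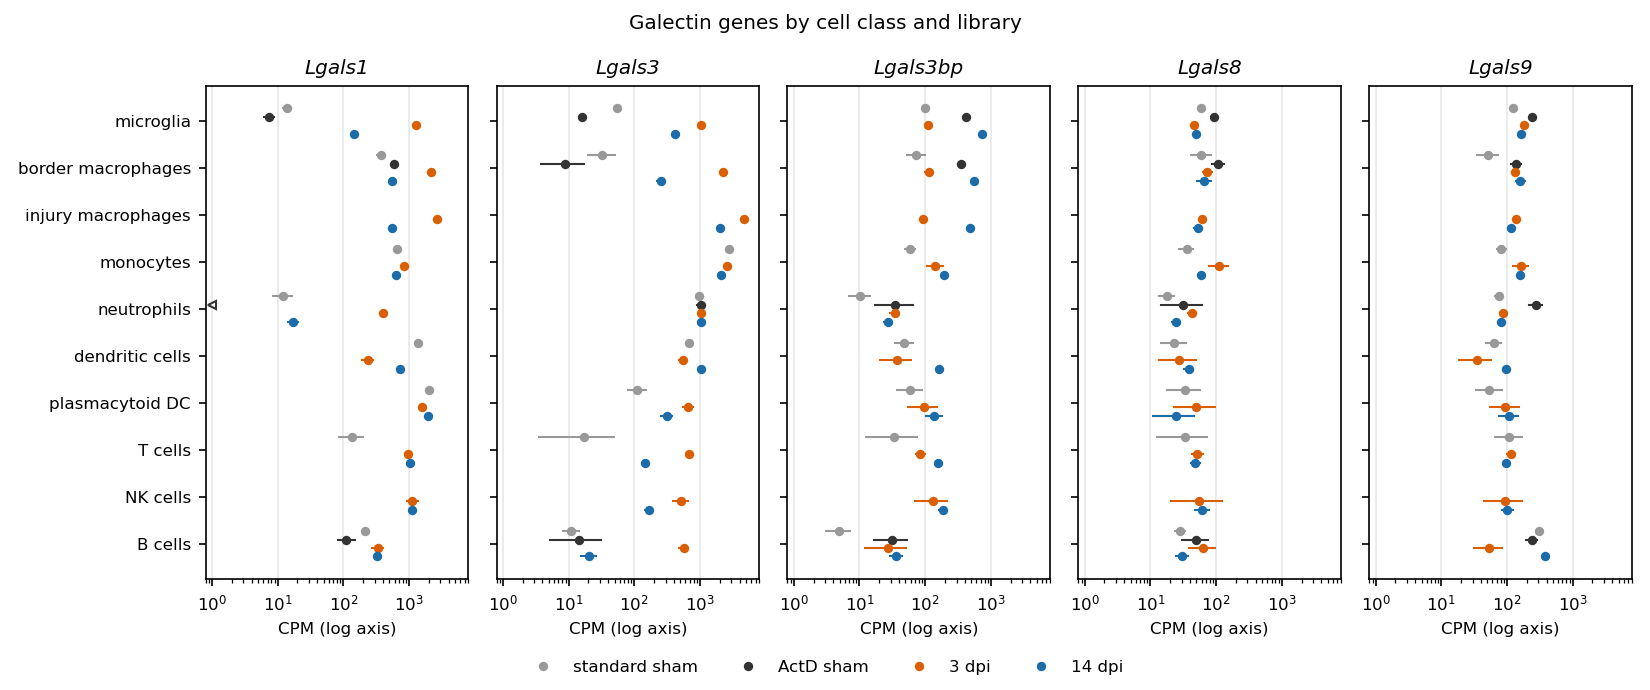
Level of each member (CPM, log axis) in 10 classes of the 4 libraries, with 95% counting intervals (the arrow marks 0 UMIs). Lgals3 is near 1000 CPM in neutrophils and above 2000 in monocytes of every library that held them, Lgals3bp is highest in microglia at 14 dpi (736), and Lgals8 lies in a narrow band.

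Genes that act with galectins were taken as lists. Of 17 galectin partner proteins, 16 were measured in microglia at 3 dpi against ActD sham, of which 4 were past 2-fold higher and 6 lower, with a median log2 ratio of -0.84 beside -0.50 over all genes. Over all genes 15.3% were higher and 32.4% lower. Against standard sham the balance of directions turned, with 5 partners higher and 1 lower (Mertk), where 21.2% of 12137 genes were higher and 18.2% lower, and a median of -0.36 beside 0.02. The ratios that follow are against ActD sham. Cd44, the hyaluronan receptor, stood at 61.7 CPM at 3 dpi and 2.89 in ActD sham. Pdpn, podoplanin, stood at 38.1 CPM and had no UMI in ActD sham. The part of macrophage RNA in these 3 dpi values was not tested. The efferocytosis receptor Mertk was at 87.6 against 436 CPM (0.201), Tlr4 at 0.315 and the "do not eat me" protein Cd47 at 0.379. Havcr2, which encodes the galectin-9 receptor Tim-3, stood at 99.8 CPM against 259 (0.385). At 14 dpi 4 partners were higher and 2 lower, with a median of -0.08 beside -0.52 over all genes, of which 7.2% were higher and 18.6% lower.

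The 16 enzymes that branch or cap the glycans to which galectins bind had a median of -0.58 at 3 dpi, with 2 past 2-fold higher and 5 lower, shares near the 15.3% and 32.4% over all genes. Against standard sham 2 were higher and 3 lower, where 21.2% and 18.2% of all genes were. As single values against ActD sham, the sialyltransferase St3gal6 stood at 33.8 CPM against 285 (0.119), and the branching enzymes Mgat4a (0.327) and Mgat1 (0.365) were also low. Man2a1, a Golgi mannosidase, was at 2.69 and St3gal1 at 2.10. At 14 dpi none was higher and 5 were lower, where 7.2% and 18.6% of all genes were. Of the 14 damaged-lysosome genes, 12 were measured, with a median of -0.45 at 3 dpi, where Map1lc3b, the autophagosome protein LC3B, was past 2-fold higher (2.05) and Calcoco1 (0.384) and Tfeb (0.440) lower.

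The interferon response genes had 1 of 20 higher and 14 lower in microglia at 3 dpi against ActD sham, with a median of -1.70. At 14 dpi 2 were higher and 0 lower, with a median of 0.34. Against standard sham, 2 were higher and 1 lower at 3 dpi, with a median of 0.05. Beside these and the counts below, 15.3% of all genes were higher and 32.4% lower at 3 dpi against ActD sham. The shares were 7.2% and 18.6% at 14 dpi, and 21.2% and 18.2% at 3 dpi against standard sham. Against ActD sham Lgals3bp was on the same side as this list at both times, with the header versions split in the same way at 3 dpi, and against standard sham both were near 1-fold at 3 dpi. Of 17 measured microglial activation genes, 12 were past 2-fold higher at 3 dpi (median 1.80) and 14 at 14 dpi (median 3.02), and none lower. Against standard sham 11 activation genes were higher at 3 dpi (median 1.48) and none lower. All 20 proliferation genes were higher at 3 dpi than in ActD sham and 19 than in standard sham. The immediate early genes turned with the sham library, with 18 higher and 0 lower at 3 dpi against ActD sham (median 2.47) and 0 higher and 20 lower against standard sham (median -3.21). At 14 dpi 6 were higher and 3 lower than in ActD sham.

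Between classes, edgeR over the 4 libraries called 1 of 16 partners higher in macrophages than in microglia, Pdpn (log2 ratio 2.75), with a list median of 0.24 beside -0.03 over all genes, of which 1.67% were called higher and 1.72% lower. It called 1 glycan enzyme higher (St3gal1, 1.40) and 1 lower (Mgat4a, -1.43), and 0 of 12 damaged-lysosome genes. In neutrophils against microglia, 4 of 15 partners were higher and 6 lower (median 0.06 beside -0.31 over all genes, of which 15.2% were called higher and 20.8% lower). Cd44 was at 5.42 and Spn, the sialomucin CD43, at 4.31, while Mertk was at -3.61, Trem2 at -3.56 and Havcr2 at -2.57. Of 12 damaged-lysosome genes, 6 were higher in neutrophils and none lower, with a median of 1.04, beside the same 15.2% and 20.8%, led by Trim16 (3.04), Map1lc3b (2.46) and Optn (2.13). Trim16 is a known partner of galectin-3 in the handling of ruptured lysosomes, Map1lc3b coats autophagosomes, and Optn is an autophagy receptor. Of 16 glycan enzymes, 3 were higher (St3gal4 2.60, Gcnt2 2.10, St3gal1 2.08) and 3 lower, shares near those over all genes. In B cells against microglia, 2 of 14 partners were higher and 10 lower, where 8.77% and 19% of all genes were, led by Havcr2 at -5.88.

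Genes with a pattern most like each member were ranked by Pearson's r of log2(CPM + 1) over 29 groups of class and library with at least 50 cells, among 11923 genes. The groups share libraries and differ in depth, so r is a description. Among the genes closest to Lgals3 were Anxa2 (0.90), Arpc1b (0.87), Fgr (0.87) and Alcam (0.86). Lgals1 was closest to Ahnak (0.85), Lamtor2, Capn2 (both 0.84), Sec61g (0.83) and Dnajc15 (0.81). Lgals3bp was closest to Os9 (0.85), Cyp4v3, Aplp2 (both 0.83), P4ha1 and Adam17 (both 0.82). Lgals8 was closest to Secisbp2l (0.87), Tulp4 (0.85), Exoc6b, Zmat3 (both 0.84) and Slc38a7 (0.81). For Lgals9 the closest were 5930430L01Rik, Zfp324, Nutf2 (all 0.72), Pomt1 and Zfp11 (both 0.71). Among the members, Lgals3bp and Lgals8 were the pair most alike (0.67), Lgals1 and Lgals3 were at 0.39, and Lgals3 and Lgals9 were the least alike (-0.43).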

How the data were processed

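The deposited matrices hold unnormalised UMI counts for each gene in each barcode, which the authors made with Cell Ranger against mm10 according to the submitters' processing notes. The matrix headers name software versions 3.0.1 and 3.1.0. The matrices held 2439 to 11631 barcodes and, over the kept cells of a library, 25739742 to 95757564 UMIs. Following the study's methods, cells with fewer than 600 genes or more than 10% mitochondrial UMIs, or with Itgam together with a lymphoid marker, were removed. The 42 to 931 cells with the highest simulated-doublet scores in a library were taken out at 0.8% per 1000 cells. Libraries were integrated and clustered with Seurat 5.3.0 (2000 features, 50 dimensions, resolution 0.6, galectin genes left out).

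Each cluster of at least 20 cells in a library was named from fixed markers where at least 3 were detected in 25% of cells. It stayed unnamed where markers of another class outnumbered its own among its 10 leading genes, or where its median UMI count was low and no own marker led it. These thresholds were set after clusters were seen. UMI sums per class and library were tested with edgeR 4.0.16 (quasi-likelihood, TMM, filterByExpr, Benjamini-Hochberg over all genes, library as covariate). With 1 library per condition, conditions were compared only by CPM ratios with exact conditional Poisson intervals, for genes with at least 20 UMIs over both sums. CPM intervals are exact Poisson, shares exact Clopper-Pearson, and a count of 0 was given an upper limit of 3 counts. Within the 3′ assay, levels were not compared between genes.

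The text names all 5 members, the 5 genes most like each (1 is not reported here), and, of each list, those furthest past the threshold. Members and lists were chosen with earlier results of these data known. Alternatives were DESeq2 1.42.0, other scalings, filters, doublet rates, thinning and clustering, and leaving out each library. A looser naming rule was added after seeing the data. The tests were checked on simulated counts. In the class simulation each gene had the same mean per class in all libraries. The check therefore does not cover classes that change between conditions. Scripts ran under R 4.3.3, Python 3.11.15 and scanpy 1.11.5.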

Additional observations from a re-analysis of the deposited data

Results flagged for a closer look

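The ratio of Lgals3 in named macrophages to that in named microglia lay on opposite sides of 1 in sham and injury libraries. It was 0.601 in standard sham and 0.542 in ActD sham, against 4.33 at 3 dpi and 3.94 at 14 dpi. The difference between sham and injury was not tested, since each condition is 1 library, and the ActD sham interval (0.232 to 1.08) includes 1. The standard sham interval (0.360 to 0.945) rests on 19 macrophage UMIs. Standard sham microglia also leave out 625 unnamed cells of cluster 9, at 13.6 CPM of Lgals3, and the ratio with them was not computed. ActD sham macrophages leave out 46 unnamed cells of cluster 7, at 226 CPM of Lgals3, against 8.68 CPM in the named border macrophages. Those 46 cells scored highest for border macrophage markers, and the ratio with them was not computed either. In standard sham and at 14 dpi the same cluster was named dendritic cells. The macrophages compared were 87 and 85 border macrophages in the sham libraries and mostly injury macrophages afterwards. Border macrophages alone stood at 2208 CPM at 3 dpi and 252 at 14 dpi, against 1053 and 415 CPM in microglia, so at 14 dpi this class lay below microglia again, and its own markers were then no higher than the microglial markers it carried.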

How the results depend on the processing

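Of 120 recomputed counts and shares, 84 stayed the same. Of 315 recomputed values of single members, 225 did and 8 were counted as turned in direction. Counts close in size passed as the same, as did shares and condition ratios within the main counting interval. For class tests the same meant an unchanged direction and call. Condition ratios were counted as turned only where the main value was past 2-fold. Smaller ratios that changed sign with TMM scaling, given above, are thus not among the 8. For macrophages over microglia (0 members and 398 genes called), DESeq2 called 1 member and 1516 genes, no low-count filter 1 and 1033, no library covariate 0 genes, a stricter cell filter 253, and clustering each library alone 162 (without named macrophages at 14 dpi). For neutrophils (2 members), no library covariate, clustering each library alone and the looser naming rule each left 1. For B cells (1 member), DESeq2, no low-count filter and the stricter cell filter each called 2. Leaving out 1 library gave 0 members and 0 to 385 genes for macrophages (0 genes without either sham library, 264 without 14 dpi), 1 to 3 members and 1326 to 5034 genes for neutrophils (fewest without 14 dpi, of 4033), and 1 to 4 members and 1619 to 5022 genes for B cells (of 3135; most without 3 dpi, fewest without standard sham).

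Lgals9 in neutrophils over microglia (0.035) turned to -0.20 with DESeq2, -0.10 with no low-count filter, and -0.32 to 0.42 when 1 library was left out. In B cells over microglia (0.051) it turned to -0.089 with no low-count filter and ranged from -0.33 to 0.61 when 1 library was left out. Lgals1 in B cells turned from 1.72 to -0.83 with no library covariate. The members past 2-fold between 3 and 14 dpi in neutrophils went from 1 to 2 with TMM scaling, and those between macrophages and microglia at 3 dpi from 2 to 1 with the stricter filter. The share of microglia with an Lgals3 UMI was 9.10%, 5.22%, 96.0% and 59.1% with no thinning and 4.50%, 1.78%, 80.4% and 38.5% at 3000 UMIs, in standard sham, ActD sham, 3 dpi and 14 dpi. Clustering each library alone gave 0.333% in ActD sham and 46.3% at 3 dpi, and the stricter filter 60.1% at 3 dpi. The causes were not tested. The class tests compare classes within a library through the library covariate, and the labels give no replicate numbers by which libraries of different conditions could be paired. Depth limits the small classes most: 27 neutrophils in ActD sham, 28 T cells in standard sham and 55 monocytes at 3 dpi.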

Other observations

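Cells that stayed unnamed also held galectins. At 3 dpi, 493 cells of cluster 7, led by Ifitm1 and the MHC class II genes H2-Ab1 and H2-Eb1, had 763 CPM of Lgals1 and 1385 of Lgals3. In ActD sham, 46 cells of the same cluster, led by Retnla and Cd209a, had 520 CPM of Lgals1 and 226 of Lgals3. They scored highest for border macrophage markers, and the named border macrophages there had 8.68 CPM of Lgals3. In ActD sham, 75 cells of cluster 6, led by the neutrophil granule genes Ltf, Camp and Ngp, had 1130 CPM of Lgals3 and 4.98 of Lgals1, near the named neutrophils of that library (1027 and 0 CPM). In standard sham, 625 cells of cluster 9, led by Gpr84, Il1a and Tnfsf9, had 13.6 CPM of Lgals3, 6.97 of Lgals1 and 98.2 of Lgals3bp. Their Lgals3 was nearer to microglial cluster 0 (8.61 CPM) than to cluster 1 (486 CPM) of the same library. All 10 microglial markers were detected in these cells, and cluster 9 counted as microglia in ActD sham, at 3 dpi and at 14 dpi. In standard sham, 332 cells of cluster 8 (13.5 CPM of Lgals3) and 73 of cluster 25 (9.53 CPM) also scored highest as microglia but stayed unnamed. Cluster 8 stayed unnamed in ActD sham too (67 cells), but was named injury macrophages at 3 dpi and microglia at 14 dpi. The microglia class of standard sham was thus drawn more narrowly, and the part of this in its galectin levels was not tested.

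Other galectin genes were scarce. Over all kept cells of standard sham, ActD sham, 3 dpi and 14 dpi, Lgals2 had 4, 3, 16 and 16 UMIs, Lgals4 had 45, 59, 61 and 62, and Lgals7 had 10, 6, 39 and 13. Lgals12 had no UMI in any library. The galectin-related gene Lgalsl had 129, 108, 191 and 335 UMIs.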
